A study of Mus musculus with 36 samples.

Results

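The genes of 7 proteins that have been linked to the NuRD (nucleosome remodeling and deacetylase) complex were examined as chromatin loci: Zfp296, Zfp219, Zmynd8, Zfp592, Zfp687, Wdr5 and Cdk2ap1. They were chosen by name and not by a measured value, but with earlier results of these data known. They are 7 of 22380 annotated protein-coding genes. Every ChIP-seq peak whose midpoint lay within 50 kb of one of these gene bodies was taken, separately for each gene and each of 9 peak lists, which gave 246 peaks. ChIP-seq sequences the DNA that is precipitated with a protein, so a peak is a stretch of genome where that protein was found above an input control.

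NuRD couples histone deacetylation to ATP-dependent nucleosome remodeling. MBD3 is a core scaffold subunit, and CHD4 is the remodeling enzyme, which also acts outside NuRD. Zinc finger proteins such as ZFP296 bind the complex substoichiometrically and are thought to bring it to DNA. ZMYND8, ZFP592 and ZFP687 form a module with one another, ZMYND8 carrying domains that read histone marks. WDR5 is a scaffold of the histone H3 lysine methyltransferase complexes of the MLL family, and CDK2AP1 is a small NuRD subunit. ZFP219 is a zinc finger transcription factor. These proteins were not themselves mapped, except for ZFP296, so the data show what occupied their genes.

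The series compared NuRD binding in mouse embryonic stem cells (ESCs) with that in neural progenitor cells (NPCs). The wild-type cells were R1 ESCs grown in serum and LIF with 2i, and NPCs derived from R1 ESCs and kept in NPC medium. Lists were available for MBD3 and CHD4 in ESCs (2 replicates each) and in NPCs (1 list each), for SIN3A in ESCs (1 preparation without and 1 with spike-in chromatin), and for GFP-tagged ZFP296, precipitated with a GFP antibody from a line labelled ZFP296-BAC R1 ESCs (1 list). SIN3A is the scaffold of another histone deacetylase complex. A BAC (bacterial artificial chromosome) transgene carries a large genomic fragment. The study's methods describe a cDNA construct in KH2 ESCs instead, and which of these the list came from was not tested. The other 27 of 36 samples, which include the Zfp296 knockout clones, were not analysed here.

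The lists were unequal in length. ESC MBD3 had 2344 peaks in replicate 1 and 7551 in replicate 2, ESC CHD4 had 11712 and 29974, NPC MBD3 had 2304, NPC CHD4 had 20234, GFP-ZFP296 had 3102, and SIN3A had 16170 without and 11422 with spike-in. The second ESC CHD4 replicate is labelled as wild type, yet each of its 29974 peaks has a name that mentions a Zfp219 BAC. Zfp219 is one of the genes described here, so the number of genes with peaks of all ESC lists, the shares of merged regions, the CHD4 test and the likeness for Zfp219 are also given without it. RNA was not analysed here, and the cells were checked only through peaks at marker loci. All 5 ESC marker genes found in the annotation (of 6 listed) had peaks in both ESC MBD3 lists (15.8% and 33.2% of all genes). Of these 5, 0 had a peak in NPC MBD3 (15.7%), but 3 had a peak in NPC CHD4 (57.9%). The NPC counts were thus near the shares of all genes. Of 4 NPC marker genes found (of 5), 1 had a peak in NPC MBD3, 1 in NPC CHD4, and from 0 to 2 in the ESC lists, so the peaks do not mark NPC identity.

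Each peak carries the authors' value on a −log10 scale. It is given below together with its percentile, the share of peaks in the same list with a lower value, since values were not comparable between lists. Intervals on counts are exact Poisson 95% intervals and cover counting error only. Coordinates are mm9, and distances run from the annotated start of the gene in the direction of transcription.

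The sequences that carry the main positions are shown first, on the plus strand of mm9. Capitals mark any of 4 fixed strings, searched on both strands: the telomere repeat unit TTAGGG, the POU5F1 octamer ATGCAAAT, the SOX2 string CCATTGT and the AP-1 string TGACTCA. At Zfp296 the stretches are those under the regions shared by most ESC lists, together with the bases just upstream of the gene's start. The first, chr7:20158350-20158379, lies 4.27 kb upstream in an intron of the neighbouring gene Gemin7. The second, chr7:20161133-20161332, lies 1.40 kb upstream between genes. The third, chr7:20162464-20162635, ends at the base before the annotated start, and the fourth, chr7:20162731-20162836, lies in the first coding part of Zfp296 under the GFP-ZFP296 peak.
Zfp296 distal octamer: tcccacctcctATGCAAATtcgctaaatgg
Zfp296 upstream peak: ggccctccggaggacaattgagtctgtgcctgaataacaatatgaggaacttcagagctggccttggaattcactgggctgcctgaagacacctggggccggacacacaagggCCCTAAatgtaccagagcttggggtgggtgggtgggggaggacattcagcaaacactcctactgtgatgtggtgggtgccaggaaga
Zfp296 before the start: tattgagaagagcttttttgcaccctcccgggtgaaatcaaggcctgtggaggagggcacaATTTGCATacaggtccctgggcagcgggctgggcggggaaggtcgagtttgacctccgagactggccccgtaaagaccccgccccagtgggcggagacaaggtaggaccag
Zfp296 coding: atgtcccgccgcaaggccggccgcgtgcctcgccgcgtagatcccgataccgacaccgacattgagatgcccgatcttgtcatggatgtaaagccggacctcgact

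For the other genes 1 stretch each is shown where the results below turn on it. They are the intergenic peak upstream of Zfp219 (chr14:52642099-52642298), the centre of a SIN3A peak without spike-in that lies in the intronic Zmynd8 region held in 6 lists, peaks of 4 of which reach it (chr2:165683248-165683447), the SIN3A peak at the start of Zfp687 (chr3:94819395-94819594) and the intronic peak of Cdk2ap1 that ESC and NPC lists shared (chr5:124802244-124802443). The last stretch, chr3:94859439-94859638, lies upstream of Zfp687 and is the NPC CHD4 peak with an AP-1 string that had the highest percentile.
Zfp219 upstream: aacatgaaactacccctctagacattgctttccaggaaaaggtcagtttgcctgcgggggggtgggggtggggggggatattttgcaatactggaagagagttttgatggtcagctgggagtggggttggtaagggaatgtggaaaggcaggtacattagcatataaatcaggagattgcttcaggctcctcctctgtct
Zmynd8 intron: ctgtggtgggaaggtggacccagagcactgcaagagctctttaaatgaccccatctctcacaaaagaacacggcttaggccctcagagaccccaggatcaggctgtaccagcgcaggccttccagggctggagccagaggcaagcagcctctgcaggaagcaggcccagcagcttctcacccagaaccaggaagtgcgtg
Zfp687 start: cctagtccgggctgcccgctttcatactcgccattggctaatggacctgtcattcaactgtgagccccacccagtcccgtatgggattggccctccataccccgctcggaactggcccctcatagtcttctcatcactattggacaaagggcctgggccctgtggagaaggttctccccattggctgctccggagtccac
Cdk2ap1 intron: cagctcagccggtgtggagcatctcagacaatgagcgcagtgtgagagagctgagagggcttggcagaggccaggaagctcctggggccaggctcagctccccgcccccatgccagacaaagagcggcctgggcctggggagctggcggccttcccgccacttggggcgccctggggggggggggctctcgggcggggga
Zfp687 NPC peak: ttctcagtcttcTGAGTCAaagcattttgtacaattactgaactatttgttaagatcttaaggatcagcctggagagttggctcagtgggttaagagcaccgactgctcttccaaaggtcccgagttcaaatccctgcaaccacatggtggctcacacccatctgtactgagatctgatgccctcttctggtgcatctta

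In ESCs, MBD3 peaks lay near 4 of the 7 genes in replicate 1 and near 6 in replicate 2, against 15.8% and 33.2% of all protein-coding genes. CHD4 peaks lay near 6 and 7 (43.0% and 67.6% of all genes), GFP-ZFP296 peaks near 6 (21.9%), and SIN3A peaks near all 7 in both preparations (65.1% and 59.2%). In NPCs, MBD3 peaks lay near 0 of the 7 (15.7% of all genes) while CHD4 peaks lay near all 7 (57.9%), so that all 7 had CHD4 but not MBD3 peaks there (42.7%). Windows grow with gene length, and the windows of 6 of the 7 genes hold the starts of other genes, so these counts belong to loci and not to single promoters.

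Over all 9 lists, Zfp219 had 77 peaks, Zmynd8 55, Zfp296 40, Zfp592 26, Wdr5 22, Zfp687 17 and Cdk2ap1 9. The CHD4 replicate 2 list supplied 51 of the 77 at Zfp219. Peaks of all 7 ESC lists were present at Zfp296, Zfp219, Zmynd8 and Zfp592 (4 genes; 7.63% of all genes), and at none of Zfp687, Wdr5 and Cdk2ap1. Without CHD4 replicate 2, peaks of the 6 other ESC lists were present at the same 4 genes (7.63% of all genes). When every list was cut to its 2304 highest peaks, the length of the shortest list, 1 of the 7 genes still had a peak of each ESC list (1.18% of all genes). That gene was Zfp296.

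**Figure D1:**
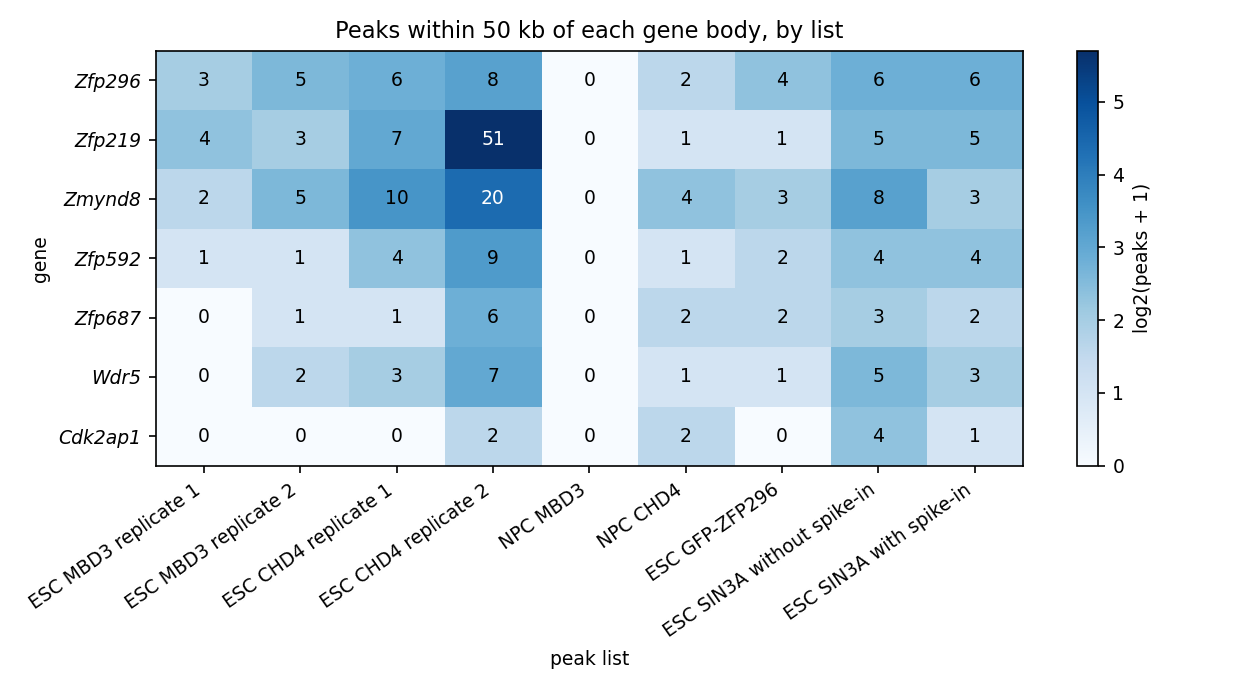
Number of peaks within 50 kb of each gene body (rows: genes; columns: peak lists), with colour on a log2(peaks + 1) scale and no error shown. The NPC MBD3 column holds 0 peaks throughout, and the darkest cell is Zfp219 in ESC CHD4 replicate 2 with 51 peaks.

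Zfp296 (chr7:20162636-20166005, plus strand) encodes the zinc finger protein that was itself mapped. Its window held 3 and 5 MBD3 peaks, 6 and 8 CHD4 peaks, 4 GFP-ZFP296 peaks, and 6 SIN3A peaks in each preparation, in ESCs. In NPCs it held 0 MBD3 and 2 CHD4 peaks. Few genes had as many: 1.95% had at least 3 peaks in MBD3 replicate 1 and 1.23% at least 4 in GFP-ZFP296, whereas 12.4% had at least 6 in SIN3A without spike-in. The window spans 103 kb, so the GFP-ZFP296 density was 3.87 peaks per 100 kb (1.05 to 9.91).

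The peaks were gathered into merged regions, joined wherever peaks of any lists overlapped. Of 12 regions at Zfp296, 9 (75.0%) held peaks of 2 or more lists and 3 (25%) of 4 or more, against 35.9% and 6.73% of all 62184 regions. Without CHD4 replicate 2 the counts were 7 (63.6%) and 2 (18.2%) of 11 regions, against 32.01% and 4.42%.

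The region held by most lists, chr7:20158138-20159650, had peaks of all 7 ESC lists. It lies 3.74 kb upstream of Zfp296 and only 0.278 kb inside Gemin7, which runs the other way and whose protein takes part in the assembly of spliceosomal ribonucleoproteins. The highest MBD3 replicate 2 peak in it, chr7:20158138-20158777, had a value of 49.4 (percentile 99.9), and the GFP-ZFP296 peak had 30.9 (98.6). The MBD3 replicate 1 peak had 24.9 (98.8), and the SIN3A peaks had 29.2 (95.4) and 10.3 (65.3). The 4 peaks of MBD3 replicate 2, GFP-ZFP296 and both SIN3A lists that centre about 4.2 kb upstream held the octamer shown above. The peak of MBD3 replicate 1 there did not hold it in its central 200 bp.

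The second region, chr7:20160865-20161541, lies 1.43 kb upstream between Gemin7 and Zfp296, and Zfp296 has the nearest start. It had peaks of 6 ESC lists, the exception being SIN3A with spike-in. GFP-ZFP296 reached 75.2 here (chr7:20160891-20161529; percentile 99.9), MBD3 replicate 2 reached 51.7 (chr7:20160976-20161489; 99.9), and CHD4 gave 29.1 (99.1) and 54.8 (99.9). MBD3 replicate 1 gave 12.3 (82.3) and SIN3A without spike-in 21.8 (87.9). ZFP296, MBD3 and CHD4 thus had peaks within the top 1% of their lists at the same place, except for MBD3 replicate 1. The MBD3 and CHD4 replicate 1 lists, labelled as wild type, had peaks in both upstream regions but none at the start of Zfp296. The ZFP296 line carries a ZFP296 transgene, and its part in the GFP peaks was not tested.

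At the start of Zfp296 itself, chr7:20162334-20163412, there were peaks of CHD4 replicate 2 (19.0; percentile 93.4), GFP-ZFP296 (17.2; 92.8) and SIN3A (24.0 and 10.03; 91.1 and 64.3), but none of MBD3 or CHD4 replicate 1. The CHD4 replicate 2 peak held the octamer printed above just before the start. NPC CHD4 had no peak in these 3 regions. It shared chr7:20149808-20150066, 12.7 kb upstream, with both ESC CHD4 lists, where the values were 16.1 in NPC and 11.6 and 16.4 in ESC. Its other peak lay at the start of the neighbouring gene Lrrc68, 15.1 kb upstream, together with both SIN3A lists.

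**Figure D2:**
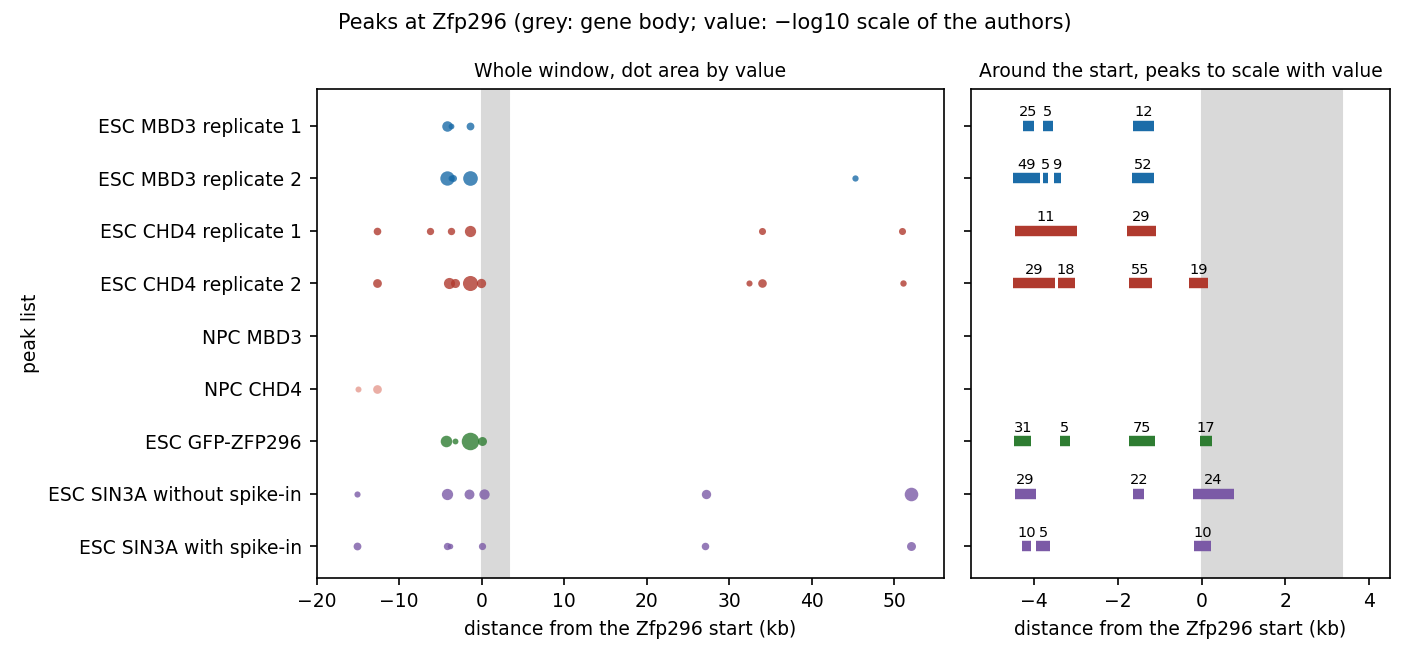
Positions of peaks around Zfp296 by list (x axes: kb from the start; rows: peak lists), over the whole window with dot area by the authors' value, and around the start with peaks drawn to scale and their values printed. Peaks of ESC lists stack 4.2 and 1.4 kb upstream of the start, where both NPC lists have none.

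Zfp219 (chr14:52625752-52640408, minus strand) had 4 and 3 MBD3 peaks, 7 and 51 CHD4 peaks, 1 GFP-ZFP296 peak and 5 SIN3A peaks in each preparation in ESCs, and 0 MBD3 and 1 CHD4 peak in NPCs. The 4 MBD3 peaks in replicate 1 were reached by 0.755% of all genes, and the 51 CHD4 peaks in replicate 2 by 0.0268%, that is 6 genes. The gene thus stood near the top of all genes in both of these lists. In the other replicates it stood lower. At least 3 peaks in MBD3 replicate 2 were reached by 7.89% of all genes, and at least 7 in CHD4 replicate 1 by 4.63%.

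Apart from CHD4 replicate 2, most lists met in 2 regions. The first, chr14:52641809-52643282, lay 2.14 kb upstream between genes. It had peaks of both MBD3 lists, both CHD4 lists and SIN3A without spike-in. Values were 5.60 and 20.1 for MBD3 (percentiles 17.7 and 96.5), 11.2 for CHD4 replicate 1 (75.96) and 15.4 for SIN3A (69.9). The other, 46.1 kb upstream (chr14:52685608-52687402), had peaks of both MBD3 lists, both CHD4 lists and SIN3A with spike-in. A region 6.14 kb downstream of the start in an intron also held peaks of 5 lists. Its MBD3 peak overlapped only the CHD4 replicate 2 peak. At the start, SIN3A peaks were weak, with values of 5.40, 6.90 and 6.06 and percentiles from 1.53 to 30.7.

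The CHD4 replicate 2 peaks were set apart from those of replicate 1. With gaps of at most 15 kb, 69 peaks of replicate 2 formed 1 run over chr14:52587586-52739306, from 98.9 kb upstream of the Zfp219 start to 52.8 kb downstream. The run of 151.7 kb ranked 1 by number of peaks among 13436 runs in that list, and the next, on chromosome 17 (chr17:34192652-34278342), held 41 peaks against 2 in replicate 1. In the Zfp219 run, CHD4 replicate 1 had 9 peaks, MBD3 had 4 and 5, SIN3A 6 and 6, GFP-ZFP296 1, NPC CHD4 1 and NPC MBD3 0. Of the replicate 2 peaks in the run, 13.0% overlapped a replicate 1 peak, against 27.7% in the whole list. All 7 replicate 1 peaks in the 50-kb window overlapped a replicate 2 peak.

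The highest replicate 2 peaks at Zfp219 lay in its exon 11.8 kb from the start (chr14:52627791-52629350; value 89.7, percentile 99.98), at the upstream region described above (chr14:52641809-52643282; 68.5) and 46.1 kb upstream (chr14:52685608-52687402; 68.3). Another 7 replicate 2 peaks lay between 1 kb upstream and 5 kb downstream of the start, from chr14:52640243-52640836 (23.3) to chr14:52635557-52636888 (18.2), where replicate 1 had 0. In a two-sided Fisher's exact test of peaks inside and outside each window, the odds of a peak at Zfp219 were 2.85 times higher in replicate 2 than in replicate 1 (1.29 to 7.45; p = 0.00511 exact), which did not pass Benjamini-Hochberg adjustment over 15350 genes (adjusted p = 1). By this test 0 genes passed (0.00%) and 216 (1.41%) had an unadjusted p under 0.05. The peak names that refer to a Zfp219 BAC belong to the same list as the dense run; what part the cells behind that list have in the run was not tested. The test compares libraries, not conditions.

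**Figure D3:**
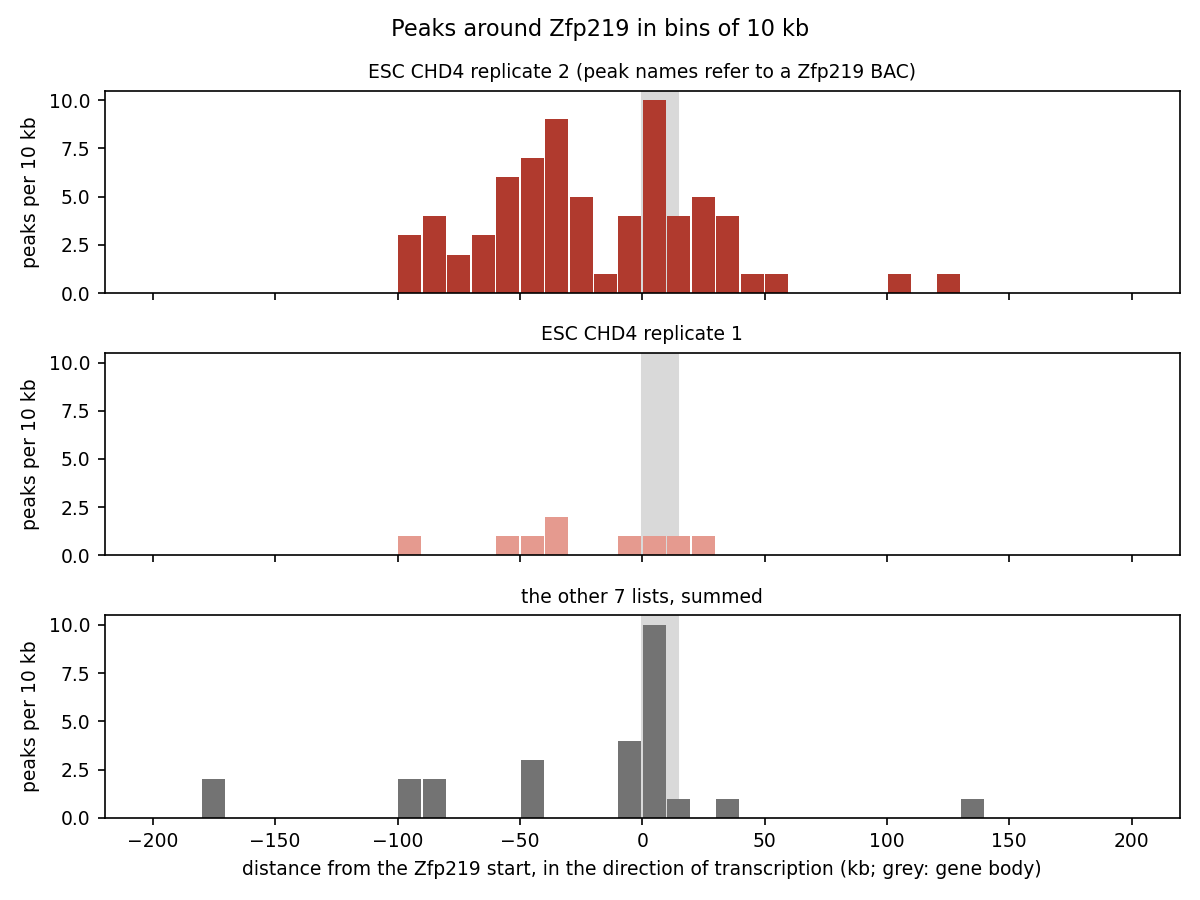
Peaks per 10 kb from 200 kb upstream to 200 kb downstream of the Zfp219 start, for ESC CHD4 replicate 2, ESC CHD4 replicate 1 and the other 7 lists summed; bars are counts. The replicate 2 peaks fill the bins from 100 kb upstream to 60 kb downstream, with up to 10 peaks a bin, where replicate 1 reaches at most 2.

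Zmynd8 (chr2:165609654-165724516, minus strand), whose protein reads acetylated and methylated histones, is the longest of the genes. It had 2 and 5 MBD3 peaks, 10 and 20 CHD4 peaks, 3 GFP-ZFP296 peaks, and 8 and 3 SIN3A peaks in ESCs, and 0 MBD3 and 4 CHD4 peaks in NPCs. Inside the gene lay 2 of 2 and 2 of 5 of the MBD3 peaks, 8 of 10 and 15 of 20 of the CHD4 peaks, 2 of 3 of the GFP-ZFP296 peaks, 6 of 8 and 3 of 3 of the SIN3A peaks, and 2 of 4 of the NPC CHD4 peaks. The gene body makes up 114863 bp of the window of 214.9 kb, which held no start of another gene, so these positions are internal or flanking. Per 100 kb, CHD4 replicate 1 had 4.65 peaks at Zmynd8 (2.23 to 8.56) and 5.80 at Zfp296 (2.13 to 12.6), and these intervals overlap.

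A region in an intron 41.3 kb from the start, chr2:165682831-165683521, held peaks of 6 ESC lists, all but SIN3A with spike-in. The peaks of the MBD3 replicates in it did not overlap one another. None of the values in this region was high: they ran from 5.75 in MBD3 replicate 2 to 11.8 in CHD4 replicate 2. A pair of further intronic regions, 89.0 and 90.7 kb from the start, held peaks of 5 lists each. The MBD3 replicate 1 peak there (chr2:165635522-165635742) had 13.7, and a CHD4 replicate 1 peak 103.1 kb from the start (chr2:165621223-165621533) had 14.2. The highest peak of the gene lay at its start (chr2:165724461-165724754), in MBD3 replicate 2 only among the MBD3 lists, with a value of 19.9 (percentile 96.4). CHD4 replicate 2 (14.7) and SIN3A without spike-in (11.99) also had a peak in that region, chr2:165724411-165724754. All 3 peaks held the telomere repeat unit in their central 200 bp, but they overlap one another, so these are not separate matches. Further CHD4 replicate 2 peaks in the first 5 kb, 1.66 and 4.24 kb from the start, had values of 5.47 and 4.05. None of the 4 NPC CHD4 peaks, with values from 5.73 to 9.42, overlapped an ESC peak. Such overlap was uncommon in general: of all merged regions with an NPC peak, 20.2% also held an ESC peak.

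Zfp592 (chr7:88138598-88190050, plus strand) and Zfp687 (chr3:94810512-94819370, minus strand) encode the zinc finger partners of ZMYND8. Zfp592 had 1 and 1 MBD3, 4 and 9 CHD4, 2 GFP-ZFP296, and 4 and 4 SIN3A peaks in ESCs, and 0 MBD3 and 1 CHD4 peak in NPCs. Its most shared region, chr7:88239170-88239553, lay 100.8 kb from the start in an intron of Alpk3, with peaks of 5 lists and values between 5.00 (MBD3 replicate 2) and 14.7 (SIN3A without spike-in). The CHD4 replicate 2 peak there (chr7:88239213-88239551) had 14.5. The single MBD3 replicate 1 peak was far away, 45.6 kb upstream (chr7:88092944-88093138; 12.2). At the start, SIN3A had peaks on both sides in both preparations, at chr7:88138067-88138425 and chr7:88138512-88138997, with values from 8.33 to 15.6. CHD4 replicate 2 also had a peak on each side (7.60 and 8.89), while MBD3, GFP-ZFP296, CHD4 replicate 1 and NPC CHD4 had none.

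Zfp687 had 0 and 1 MBD3, 1 and 6 CHD4, 2 GFP-ZFP296, and 3 and 2 SIN3A peaks in ESCs, and 0 MBD3 and 2 CHD4 peaks in NPCs. MBD3 replicate 2 (chr3:94763770-94764011; 16.7, percentile 92.8), CHD4 replicates 1 and 2 (7.64 and 10.8) and GFP-ZFP296 (chr3:94763784-94764039; 13.5, 84.6) met in 1 region, chr3:94763770-94764052. It lies 55.5 kb from the start of Zfp687, in an exon of Rfx5, a gene for a regulator of MHC class II transcription. All 4 of these peaks held the octamer in their central 200 bp, but the peaks overlap one another, so these are not separate matches. At the start of Zfp687 the SIN3A peak with spike-in (chr3:94819333-94819656) had a value of 35.4 (percentile 98.4). SIN3A without spike-in had 12.7 and 17.9 on either side, in the regions chr3:94818951-94819656 and chr3:94819780-94820614. CHD4 replicate 2 (8.42) and GFP-ZFP296 (3.84; percentile 1.87) had weak peaks there.

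Wdr5 (chr2:27370677-27392055, plus strand) had 0 and 2 MBD3, 3 and 7 CHD4, 1 GFP-ZFP296, and 5 and 3 SIN3A peaks in ESCs, and 0 MBD3 and 1 CHD4 peak in NPCs. Both SIN3A preparations covered its start, chr2:27370524-27371058, with values of 19.9 without spike-in, and 11.7 and 4.31 with it. Further SIN3A peaks without spike-in, 0.627 and 0.845 kb from the start, had 6.66 and 9.74. CHD4 lay 2.64 kb upstream in both ESC replicates, with 10.6 in replicate 1 and 19.9 (chr2:27367909-27368133; percentile 94.1) in replicate 2, and replicate 2 also had a peak of 6.46 just before the start. The NPC CHD4 peak at chr2:27394302-27394682, 23.8 kb from the start and beyond the end of the gene, had the highest percentile of all NPC peaks at the 7 genes (value 25.4; 97.7). CHD4 replicate 2 had a peak of 7.00 there. The strongest SIN3A peak in the window (chr2:27330521-27331702; 27.4) lay in an exon of Brd3, which encodes a bromodomain protein.

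Cdk2ap1 (chr5:124795426-124804680, minus strand) had 0 MBD3 peaks in either ESC replicate, 0 and 2 CHD4 peaks, 0 GFP-ZFP296 peaks, and 4 and 1 SIN3A peaks, and in NPCs 0 MBD3 and 2 CHD4 peaks. A count of 0 in this window of 109.3 kb allows up to 3.38 peaks per 100 kb. SIN3A without spike-in had 4 peaks in the first 3 kb, with values of 9.74 (chr5:124804602-124804874), 9.55 (chr5:124804159-124804448), 9.56 (chr5:124803627-124803814) and 17.9 (chr5:124802183-124802503; percentile 78.6). SIN3A with spike-in had 1 of 4.90. The intronic region chr5:124802183-124802519 was shared by SIN3A without spike-in, CHD4 replicate 2 (3.86) and NPC CHD4 (9.21). Just before the start, CHD4 replicate 2 had a peak of 11.7 (chr5:124804737-124804873; 73.1). The other NPC CHD4 peak (chr5:124752822-124753153; 10.5) lay in an intron of Mphosph9.

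Peaks around the starts were counted separately, and no test of starts against the wider windows was run. Between 1 kb upstream and 5 kb downstream of the start, SIN3A without spike-in had a peak at all 7 genes (41.0% of all genes) and SIN3A with spike-in at 6 (33.5%). Both had one at 6 genes (30.1%), the exception being Zmynd8. CHD4 replicate 2 had a peak at all 7 (24.8%), whereas CHD4 replicate 1 had one at 0 (9.35%). MBD3 had peaks at 0 starts in replicate 1 (2.46%) and at 2 in replicate 2, Zfp219 and Zmynd8 (4.09%). GFP-ZFP296 had peaks at 2, Zfp296 and Zfp687 (3.24%), NPC CHD4 at 1, Cdk2ap1 (14.1%), and NPC MBD3 at 0 (2.45%). For CHD4 the replicates therefore disagreed at every one of the 7 starts, which rests on the list whose peak names and labels differ.

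**Figure D4:**
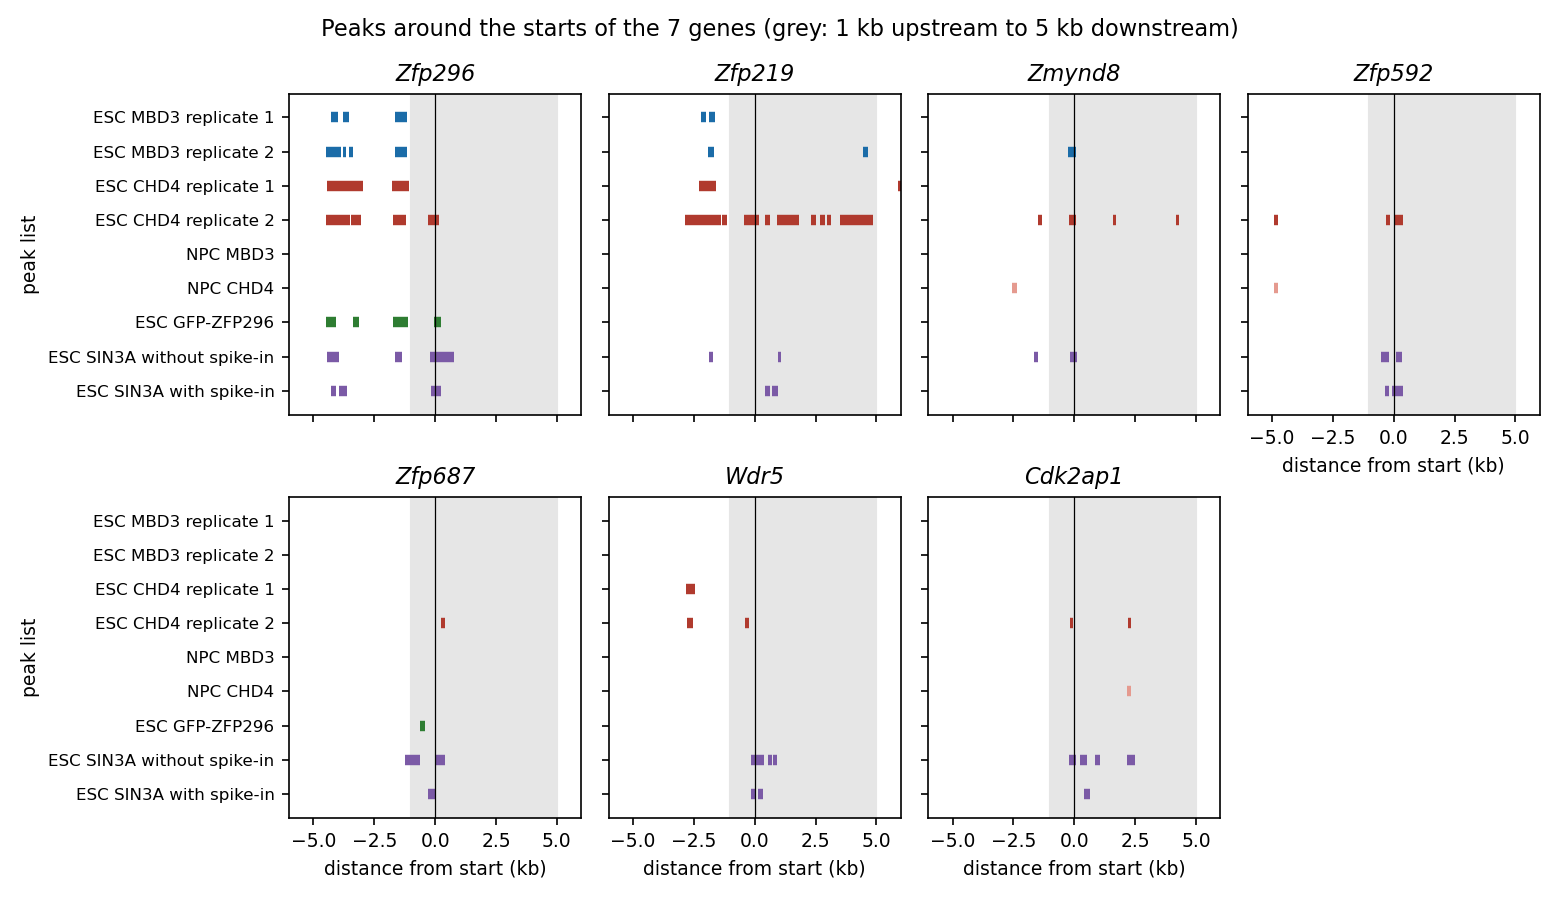
Peaks within 6 kb of the start of each gene, drawn to scale (x axes: kb from the start; rows: peak lists; grey: 1 kb upstream to 5 kb downstream). SIN3A without spike-in and CHD4 replicate 2 have peaks in the grey window of all 7 genes, while CHD4 replicate 1 has none in any.

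The starts also differed in base composition. Within 500 bp of the start, the ratio of observed to expected CpG was 1.15 at Cdk2ap1, higher than at 99.98% of the genes, 0.876 at Wdr5, 0.875 at Zfp592, 0.710 at Zfp687 and 0.709 at Zfp296. It was 0.528 at Zfp219 and 0.343 at Zmynd8, against a median of 0.549 over all genes. Zmynd8, with the lowest ratio, is the gene without a SIN3A peak at the start in 1 preparation, which is a description over 7 genes only.

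Sites present in both ESC replicates were compared with the NPC list of the same factor. Of 1508 MBD3 sites, 3 lay at Zfp296 and 2 at Zfp219 (2 of 7 genes; 10.1% of all genes), and 0 at the others. Of 8246 CHD4 sites, 5 lay at Zfp296, 7 at Zfp219, 8 at Zmynd8, 1 each at Zfp592 and Zfp687, 2 at Wdr5 and 0 at Cdk2ap1 (6 genes; 36.8%). Of 8843 SIN3A sites present in both preparations, 5 lay at Zfp296, 3 each at Zfp592 and Wdr5, and 1 each at the other 4 genes (7 genes; 53.5%).

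For MBD3 no difference between ESCs and NPCs passed the test. Zfp296 had 3 ESC sites against 0 NPC peaks (p = 0.0618, Fisher's exact test, two-sided) and Zfp219 had 2 against 0 (p = 0.156, exact), each with an adjusted p of 1 over 5127 genes tested. By this test 0 of the 5127 genes passed (0.00%), and 44 (0.858%) had an unadjusted p under 0.05.

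For CHD4, 207 of 14678 genes passed the test with a larger share of sites in ESCs (1.41%) and 0 with a larger share in NPCs (0.00%). The test set ESC sites present in both replicates against every peak of the NPC list, and at equal list sizes no gene passed. None of the 7 genes passed the main test, in which 1234 genes (8.41%) had an unadjusted p under 0.05. Zfp219 came nearest, with 7 ESC sites against 1 NPC peak (odds ratio 17.2, 2.21 to 775; adjusted p = 0.0627, Fisher's exact test). It did not pass when CHD4 replicate 1 was used alone. It passed when CHD4 replicate 2 was used alone (adjusted p = 7.82e-07, exact test), but the peak names of that list mention a Zfp219 BAC. It also passed with 100-kb windows (0.00783) and over genes with at least 5 peaks (0.0203), both with replicate 2 included. In the remaining alternatives, CHD4 replicate 1 alone included, its adjusted p in the same test ran from 0.0528 to 0.857. Zmynd8 had 8 against 4 (odds ratio 4.91, 1.32 to 22.3; adjusted p = 0.200, exact), and passed only with 100-kb windows (0.0102; 0.0778 to 0.631 in the others). Zfp296 had 5 against 2 (odds ratio 6.14, 1.00 to 64.5; adjusted p = 0.348, exact). At Zfp592, Zfp687, Wdr5 and Cdk2ap1 there were 2 or fewer on either side, and the adjusted p was between 0.916 and 1. With 1 NPC list, the tests compare lists and not cell types.

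Of 137 merged regions at the 7 genes, 53 (38.7%) held peaks of 2 or more lists and 12 (8.76%) of 4 or more, beside 35.9% and 6.73% of all regions. Without CHD4 replicate 2 it was 34.9% and 8.43% of 83 regions, beside 32.01% and 4.42%. An NPC peak was held by 13 regions, and 7 of these (53.8%) also held an ESC peak, beside 20.2% of all regions with an NPC peak. Without CHD4 replicate 2 it was 3 of 13 (23.1%), beside 15.4%, so most of this overlap rests on that list. Zfp296 had the largest share of regions in 2 or more lists (75.0%), and Zfp219 the smallest (25.5%). Without CHD4 replicate 2, Zfp219 had 33.3% of 15 regions and Zmynd8 was lowest with 16.0% of 25.

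The member peaks were not uniformly strong. Their median percentile was between 40.9 in GFP-ZFP296 and 67.1 in CHD4 replicate 2, and those in the top 10% of their list numbered 1 of 10 and 5 of 17 in MBD3, 2 of 31 and 21 of 103 in CHD4, 3 of 13 in GFP-ZFP296, 4 of 35 and 2 of 24 in SIN3A and 1 of 13 in NPC CHD4.

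Of the strings printed in capitals above, the telomere repeat unit was in the central 200 bp of 3 of 10 member peaks in MBD3 replicate 1 and 3 of 17 in replicate 2, beside 8.80% and 8.96% of all peaks in those lists. In GFP-ZFP296 the telomere repeat unit was in 1 of 13 (10.3%). In ESC CHD4 it was in 5 of 31 and 9 of 103 (8.21% and 7.28%), in SIN3A in 2 of 35 and 1 of 24 (6.10% and 5.16%), and in NPC CHD4 in 0 of 13 (6.58%). The octamer was in 0 of 10 and 3 of 17 for MBD3 (4.82% and 5.01%), and in 2 of 13 for GFP-ZFP296 (4.65%). For ESC CHD4 it was in 1 of 31 and 4 of 103 (2.62% and 2.41%), and for SIN3A in 1 of 35 and 1 of 24 (1.22% and 0.780%). The SOX2 string was in 0 of the MBD3 and CHD4 member peaks of ESCs, beside 3.28% to 6.40% of all peaks. In NPC CHD4, the AP-1 string was in 5 of 13 member peaks, at Zmynd8, Zfp687 and Cdk2ap1, beside 42.2% of all peaks in that list. In the ESC CHD4 lists it was in 2 of 31 and 3 of 103 (4.56% and 4.68%). These strings are short, and a match is not evidence of binding. Overlapping peaks of different lists can hold the same match, so the counts of different lists are not independent.

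Other genes of the same complexes, counted from lists of names, showed how common such peaks are. Of 14 genes for NuRD subunits, 6 and 8 had MBD3 peaks in the ESC replicates, 9 and 14 had CHD4 peaks, 4 had GFP-ZFP296 peaks and 13 had SIN3A peaks in each preparation, while 2 had NPC MBD3 and 13 NPC CHD4 peaks. Of 6 further genes for zinc finger partners, 5 had MBD3 peaks in each ESC replicate and 4 and 6 had CHD4 peaks. GFP-ZFP296 peaks lay near 5 of them and SIN3A peaks near 6 in each preparation. In NPCs 0 of them had MBD3 peaks and 2 had CHD4 peaks, the latter against 57.9% of all genes. The shares of all genes for the other lists are given above. Of 13 genes for SIN3A complex subunits, 13 had a SIN3A peak at the start without and 11 with spike-in, but 1 had a GFP-ZFP296 peak in its window. Of 3 genes for partners of WDR5, 1 had an MBD3 peak in each ESC replicate and 0 in NPCs.

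The genes whose 9 counts were most like those of each of the 7 were found by the Bray-Curtis dissimilarity, which is 0 for equal counts and 1 for no overlap. For Zfp296 they were Ncoa2 and Trfr2 (0.0909 each) and Arl8a (0.103). For Zfp219 they were H2-Oa (0.179), Pitpnc1 (0.187) and Brd2 (0.206), and H2-Oa and Brd2 had 41 and 38 peaks in CHD4 replicate 2 against 2 in replicate 1. In all 9 lists H2-Oa had the same counts as the chromosome 17 run of CHD4 replicate 2 named above. Whether H2-Oa and Brd2 both lie in that run was not examined, so they may not be separate likenesses. Without CHD4 replicate 2 the genes most like Zfp219 were others, Cox19 (0.0800), Cyp2w1 (0.0833) and Hk2 (0.0909). For Zmynd8 they were Zfp704 (0.0545), Apobec3 and Spag9 (0.0654 each), for Zfp592 Stmn1 (0.0400), Dstyk (0.0566) and 2610002D18Rik (0.0588), and for Zfp687 Golga7b (0.0556), Bdh1 and Bhlhe23 (0.0588 each). For Wdr5 they were Gm17239 (0.0455), BC024978 and Haus1 (0.0667 each), and for Cdk2ap1 Eif3c (0), 2310057M21Rik and Acadsb (0.0526 each). At the value of the third gene named, 2, 1, 2, 3, 2, 6 and 9 genes were tied, in the order above, and were taken by symbol. The counts are small, so such likeness is a description over 9 lists.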

How the data were processed

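The authors mapped the ChIP-seq reads to mm9 with BWA and called peaks with MACS2 2.0 for each sample on its own against input, and replicates stayed separate. The deposited lists give each peak a position and a value on a −log10 scale, of p or of q (the sources used here do not say which). Peak names carry a threshold of 0.001, or 0.0001 for SIN3A without spike-in, and those of 7 lists mention an equal read number. The deposited lists hold no read counts, so depth per peak is unknown and levels were not compared between lists.

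Peak midpoints were assigned to protein-coding genes of GENCODE vM1 extended by 50 kb, with no peak beyond the reference chromosome ends (0 peaks; 7 of 29 contigs in the lists had no reference). ESC sites are peaks of the shorter replicate list that overlap the longer by at least 1 bp. Two-sided Fisher's exact tests were run over all genes with at least 1 peak, with Benjamini-Hochberg adjustment and a threshold of 0.05. They were also run on simulated counts drawn separately for each gene. Such counts hold no runs of neighbouring peaks, so they do not show how the test behaves at a dense run. The 3 peaks of highest percentile and the peaks from 1 kb upstream to 5 kb downstream of each start were named, apart from some in the dense CHD4 run at Zfp219. Sequences came from the mm9 reference, chosen by the number of lists apart from CHD4 replicate 2 among regions with enough bases outside UTRs, which passed over the Rfx5 exon region for Zfp687; for Zfp592 and Wdr5 none is printed, and the bases before the Zfp296 start and the NPC peak were chosen after their strings were seen. The members and gene lists were chosen with earlier results of these data known. The tools were Python 3.11.15, matplotlib 3.10.9, scipy 1.17.1 and numpy 2.4.6. Replicates are samples labelled as such; the labels do not say whether they came from separate cultures.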

Additional observations from a re-analysis of the deposited data

How the results depend on the processing

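No paired analysis was possible because the lists hold peaks without read counts, each NPC group has 1 list, and peaks of one list have no partner of the same number to block on. Windows of 25 kb gave totals of 11 peaks at the 7 genes in MBD3 replicate 2 and 68 in CHD4 replicate 2. Windows of 100 kb gave 27 in MBD3 replicate 2, 51 in CHD4 replicate 1, 21 in NPC CHD4, 53 and 46 in SIN3A without and with spike-in, and 2 in NPC MBD3, near 2 genes. Lists cut to 2304 peaks gave 6 in MBD3 replicate 2, 3 and 18 in CHD4 (3 genes each), 1 in NPC CHD4 (1 gene), and 5 and 3 in SIN3A (2 and 3 genes). For these windows and cut lists the share of all genes was not computed per list, so the counts are not results about the 7 genes. MBD3 sites lay near 2 genes (10.1% of all genes), against 4 to 6 with either replicate left out (15.8% to 33.2%). CHD4 sites lay near 6 (36.8%), against 6 to 7 (43.0% to 67.6%).

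Genes called for ESC against NPC CHD4 numbered 207, and 69 with 25-kb windows, 519 with 100-kb windows, 420 over genes with at least 5 peaks and 0 at equal list sizes; leaving out a replicate gave 202 to 363. For MBD3, leaving out a replicate gave 0 to 1 genes. For CHD4 replicate 2 against replicate 1, 12 genes were called with 100-kb windows, 2 with values of at least 5 and 4 over genes with at least 5 peaks, and none of these calls was Zfp219. The difference in CHD4 peaks per 10000 (ESC minus NPC) changed sign at Zfp687 without replicate 2 (-0.13; 1.01 without replicate 1), at Zfp592 with 25-kb windows (-0.49) and at Cdk2ap1 with 100-kb windows (0.94), none of them called. Merging regions within 500 bp raised the share held by 2 or more lists to 50.5%, and searching 500 bp instead of 200 bp raised the member peaks with any string from 48 to 86 of 246. The causes were not tested. The other 94 alternatives of the main results kept their direction, but not all stayed within 1.5 times of the main value. The peaks behind the CHD4 replicate 2 against replicate 1 test at Zfp219 fell from 51 and 7 to 29 and 4 with 25-kb windows. The 94 include leaving out CHD4 replicate 2 from the shares of regions and from the count of genes with every ESC list. Leaving out CHD4 replicate 2, which was added after the data were seen, lowered the regions with both an NPC and an ESC peak from 7 to 3.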
